A study of Mus musculus with 24 samples.

Results

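The cell cycle and mitosis genes described here were 40 mouse genes chosen by symbol, from the cyclin E genes of S phase entry to the motors of cell division. Of the 40, 38 were measured, among 19505 genes in all. Ccnb1 and Foxm1 had no probe set named in the platform annotation and were not analysed here. Each measured member had 1 probe set, the unit of the array that reports a transcript. Whole lung RNA was hybridised to Affymetrix arrays from wild-type mice and from mice labelled Marfan, after the heritable connective tissue disease in which microfibrils of elastic tissue are defective. Mice of each genotype received vehicle or sildenafil, an inhibitor of the phosphodiesterase that degrades cyclic GMP. Treated mice drank sildenafil with their water starting at 6 weeks, and lungs were taken at 6 months. The labels plan 6 mice per group and name neither the Marfan allele, the strain nor the sex. Values were present for 6 wild-type vehicle arrays (numbers 13 to 18), 4 wild-type sildenafil arrays (1, 4, 5 and 6), 5 Marfan vehicle arrays (20 to 24) and 5 Marfan sildenafil arrays (8 to 12). An array number names 1 array throughout, since the numbers run on over the groups.

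A dividing cell first licenses its origins of replication, loading the MCM helicase with Cdc6 and Cdt1, and then copies its DNA with nucleotides that ribonucleotide reductase and thymidylate synthase supply. The transcription factors E2f1, E2f7 and E2f8 act on many of these S phase genes, E2f1 as an activator and E2f7 and E2f8 as repressors. Genes of mitosis are transcribed later, when the MuvB core complex, joined by B-Myb and Foxm1, binds the cell cycle genes homology region (CHR) of their promoters. In resting cells the same core, as part of the DREAM complex, represses them. Most cells of the adult lung are at rest, so that transcripts of these genes come from few cells. In RNA from whole lung, more dividing cells and more RNA per dividing cell cannot be told apart.

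Promoter windows are shown for 5 members because members of S phase and of mitosis differed in the motifs they hold. A link between these motifs and the levels on any array was not tested. The first 4 are the members farthest above the other arrays on Marfan sildenafil array 9 whose windows hold a CHR or E2F motif. E2f1 is the next whose window holds neither. Only 1 window is listed for E2f1, and other starts of the gene were not searched. Near its beginning this window reads in frame as the amino acids LRLLDSSQIVIIS of the E2f1 protein. It thus holds coding sequence before the listed start and is no example of a promoter without motifs. The lack of a match there does not show that E2f1 lacks these motifs. Each window runs 5′ to 3′ on the strand of its gene, from 250 bases before to 50 bases after the RefSeq transcription start in build GRCm38.p6. Cdk1 lies on the minus strand at chr10:69352863-69353162, E2f8 on the minus strand at chr7:48881547-48881846 and Mki67 on the minus strand at chr7:135716330-135716629. Rrm2 lies on the plus strand at chr12:24708004-24708303, and E2f1 on the minus strand at chr2:154569377-154569676. Capitals mark every match, on either strand, to the CHR (TTTGAA, or TTCAAA when read from the other strand), its variant TTTAAA, the CCAAT box (CCAAT or ATTGG) and the E2F motif (TTTCCCGC, TTTGGCGC, TTTCGCGC or TTTGCCGC).
Cdk1: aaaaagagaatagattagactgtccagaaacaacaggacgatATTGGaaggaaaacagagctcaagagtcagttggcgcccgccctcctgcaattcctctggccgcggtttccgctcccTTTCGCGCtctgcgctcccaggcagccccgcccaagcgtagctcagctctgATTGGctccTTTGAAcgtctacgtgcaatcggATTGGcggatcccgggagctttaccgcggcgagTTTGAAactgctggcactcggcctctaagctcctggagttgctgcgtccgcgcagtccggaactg
E2f8: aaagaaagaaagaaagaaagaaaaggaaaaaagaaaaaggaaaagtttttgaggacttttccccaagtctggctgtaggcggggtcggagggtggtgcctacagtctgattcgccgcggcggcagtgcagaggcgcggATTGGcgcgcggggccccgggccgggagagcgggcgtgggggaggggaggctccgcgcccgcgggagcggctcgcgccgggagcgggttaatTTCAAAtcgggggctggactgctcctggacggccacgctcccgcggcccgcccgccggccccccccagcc
Mki67: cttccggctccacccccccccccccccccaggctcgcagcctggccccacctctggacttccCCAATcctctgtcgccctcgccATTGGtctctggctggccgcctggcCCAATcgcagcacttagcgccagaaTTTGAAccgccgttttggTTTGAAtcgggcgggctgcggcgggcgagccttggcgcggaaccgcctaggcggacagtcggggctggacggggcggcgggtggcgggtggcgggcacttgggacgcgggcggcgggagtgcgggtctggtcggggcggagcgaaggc
Rrm2: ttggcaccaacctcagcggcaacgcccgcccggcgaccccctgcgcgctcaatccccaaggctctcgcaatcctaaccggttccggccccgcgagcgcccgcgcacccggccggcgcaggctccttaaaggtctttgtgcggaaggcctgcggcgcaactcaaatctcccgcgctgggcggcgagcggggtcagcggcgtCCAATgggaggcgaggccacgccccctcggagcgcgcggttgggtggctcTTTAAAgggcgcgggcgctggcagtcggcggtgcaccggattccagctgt
E2f1: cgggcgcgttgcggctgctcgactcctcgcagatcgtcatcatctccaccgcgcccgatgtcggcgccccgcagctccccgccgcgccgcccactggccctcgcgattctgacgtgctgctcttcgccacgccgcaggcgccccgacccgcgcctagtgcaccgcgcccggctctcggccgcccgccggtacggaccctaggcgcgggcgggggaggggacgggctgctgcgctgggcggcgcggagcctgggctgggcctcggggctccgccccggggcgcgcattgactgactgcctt
The Cdk1 window held CHR matches at -71 and -15, with CCAAT boxes at -208, -80 and -48 and an E2F match at -131, where -1 is the base before the transcription start and each position is that of the first base of the match. In the Mki67 window the CHR matches lay at -116 and -98, and CCAAT boxes at -188, -166 and -141. E2f8 held a CHR match at -20 and a CCAAT box at -112, and Rrm2 held the variant TTTAAA at 1, the start itself, and a CCAAT box at -50.

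The table of promoter windows held 32 of the 38 measured members, and Ccne2, Ccna2, Mcm4, Kif20a, Tpx2 and Aurkb are named only. The CHR TTTGAA was found in 14 of 19 windows of mitosis members (73.7%), in 2 of 13 windows of replication and S phase members (15.4%) and in 17.9% of all 32851 windows of the table. The E2F motif had the opposite split, with 2 of 19 mitosis windows (10.5%), 6 of 13 replication and S phase windows (46.2%) and 2.26% of all windows. A CHR of either form together with a CCAAT box was present in 73.7% of mitosis windows, 30.8% of replication and S phase windows and 10.7% of all windows. No match of 1 motif overlapped a match of another in these windows, with a count of 0. These are matches of letters and not measured binding sites. A window without a match does not show that the gene lacks the motif. The window of E2f1, counted among the 13, holds coding sequence of the gene.

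**Figure D1:**
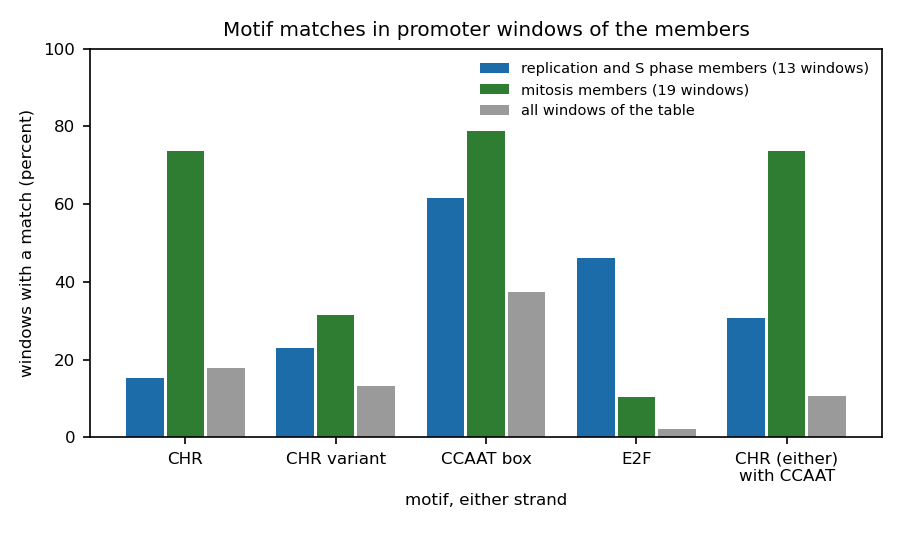
Share of promoter windows of 300 bases (percent, vertical axis) that hold each motif on either strand, for the 13 replication and S phase members (blue), the 19 mitosis members (green) and all 32851 windows of the RefSeq table (grey). The CHR is most frequent in mitosis members (73.7%) and the E2F motif in replication and S phase members (46.2%).

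Most members were dim. The mean log2 value lay under the median of all gene means (6.08) in 27 of 38 members. Pcna, the sliding clamp of replication that also serves DNA repair, Mcm6, Tyms and Mcm3 were the 4 members that exceeded the highest of 23 background probe sets on all 20 arrays. Another 8 members, Ccne2, Cdc6, Cdk1, Aurka, Bub1b, Ttk, Cenpe and Cenpf, exceeded it on none. The median SD within groups was 0.38 log2 units over the members and 0.26 over all genes. Among the members the SD ran from 0.12 for Pcna to 0.51 for Ccne2. Under the median of the gene means it was 0.41 for members and 0.31 for all genes, and over it 0.21 and 0.20. As a check of the tissue, all 6 alveolar type 2 markers, all 4 measured alveolar type 1 markers and all 6 endothelial markers exceeded the highest background probe set on 20 of 20 arrays. As deposited, the arrays had medians over all genes between 5.45 and 6.59 log2 units, and all values given here are therefore quantile-normalized log2 values. Precision is limited by the number of arrays in each group.

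The members stood high on 2 arrays, both from Marfan mice given sildenafil. The mean of the 38 members was 5.90 on array 8 and 6.08 on array 9, while the other 3 arrays of that group were at 5.34 (array 10), 5.46 (array 11) and 5.31 (array 12). Arrays 8 and 9 exceeded every other array of the study, and the other 3 lay within the range of the remaining groups. The 6 wild-type vehicle arrays had member means from 5.21 to 5.47. The wild-type sildenafil arrays were at 5.48, 5.41, 5.48 and 5.47 (arrays 1, 4, 5 and 6). The Marfan vehicle arrays were at 5.41, 5.64, 5.43, 5.31 and 5.31 (arrays 20 to 24), so that array 21 was the highest outside the pair. As group means these were 5.36 ± 0.09 (SD, n = 6), 5.46 ± 0.04 (n = 4), 5.42 ± 0.14 (n = 5) and, for Marfan sildenafil, 5.62 ± 0.35 (n = 5). The Marfan sildenafil mean was 5.50 ± 0.27 (n = 4) without array 9 and 5.37 ± 0.08 (n = 3) without arrays 8 and 9. Array 8 was singled out after its values were seen, whereas array 9 was known beforehand to stand apart over all genes. Since both are the highest arrays, leaving them out had to lower the mean, and that direction is no result. The same choice lies behind everything given here without arrays 8 and 9. The sildenafil difference in the member mean of Marfan lungs was thus no larger than the spread among the Marfan sildenafil arrays.

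**Figure D2:**
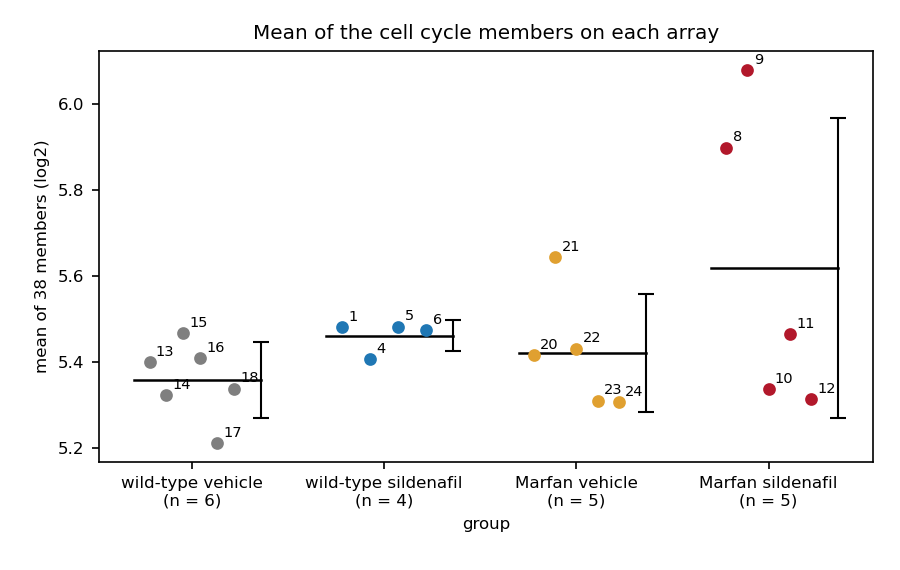
Mean log2 value of the 38 measured members (vertical axis) on each array (points, with array numbers), by group (horizontal axis). Lines give group means and bars the SD; Marfan sildenafil arrays 8 (5.90) and 9 (6.08) lie above the other 18 arrays, which run from 5.21 to 5.64.

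Counted gene by gene, 18 of 38 members on array 8 exceeded the median of the remaining 19 arrays by more than 0.5 log2 units (47.4%), against 3.59% of all genes on that array. On array 9 the count was 24 of 38 (63.2%), against 10.8% of all genes. Over the other 18 arrays the count ran from 0 to 8 members (2.59% to 8.5% of all genes), with 8 on Marfan vehicle array 21 (5.39% of all genes there). A distance of over 1 log2 unit was found for 5 members on array 8 (0.138% of all genes there) and in 7 on array 9 (3.64%). No member lay over 0.5 below the median of the others on either array, a count of 0 on each. With each array centred on its median in place of quantile normalization, the counts over 0.5 were 17 on array 8, 22 on array 9 and 0 to 7 on the others.

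**Figure D3:**
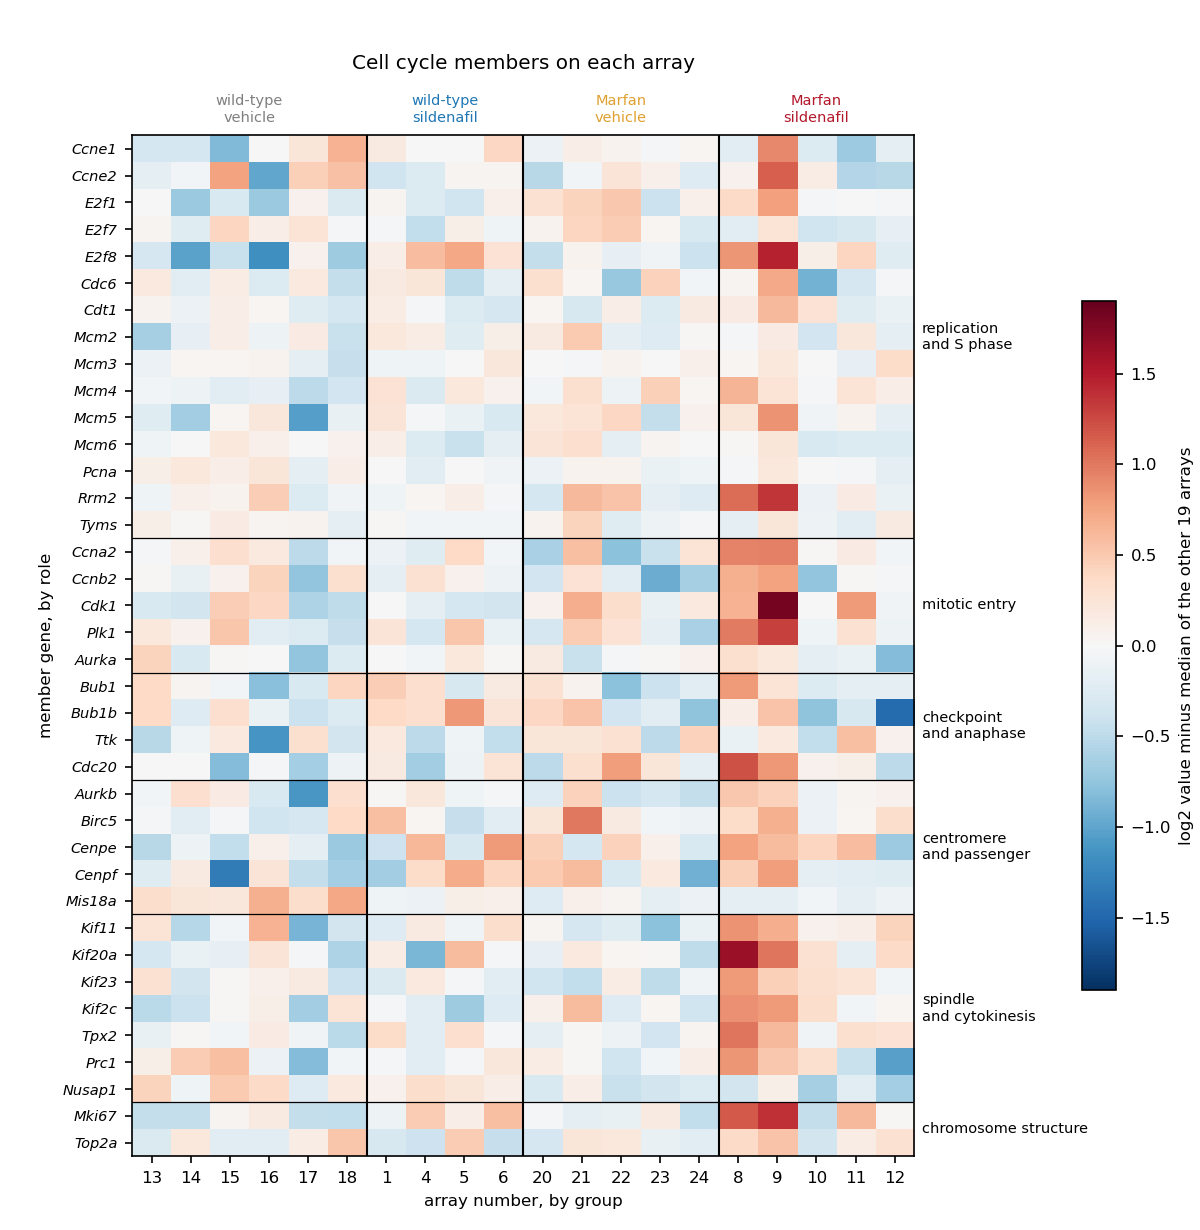
Log2 value of each measured member (rows, by role) on each of the 20 arrays (columns, by group), as the difference from the median of the other 19 arrays (colour scale, log2 units). Columns 8 and 9 are red in most rows; on no other array did more than 8 members lie over 0.5 above the median of the others.

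Set against the 18 arrays without 8 and 9, 16 members on array 8 (42.1%; 5.22% of all genes) and 21 on array 9 (55.3%; 12.7% of all genes) exceeded all 18. The 12 members that did so on both arrays (31.6%; 1.36% of all genes) were E2f8, Rrm2, Ccna2, Ccnb2, Plk1, Cdc20, Kif11, Kif20a, Kif23, Kif2c, Tpx2 and Mki67. The pair did not carry the same profile by role, however. Replication and S phase members were higher on array 9 than on array 8 in 14 of 15 cases, with a median distance of 0.65 log2 units from the median of the 18 on array 9 and 0.058 on array 8. The members of the spindle and of cytokinesis had the reverse order in 6 of 7 cases, with 0.87 on array 8 and 0.64 on array 9. Of all genes, 47.9% were higher on array 9 than on array 8. This comparison is of 2 arrays, and it has no replicate.

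Among the replication and S phase members, array 9 stood above the median of the 18 by 1.14 for Ccne2 and 0.91 for Ccne1, the cyclins that start S phase with Cdk2, and array 8 by 0.08 for Ccne2 and -0.19 for Ccne1. The licensing factor Cdc6 was at 0.72 on array 9 and 0.058 on array 8, and Mcm5, a subunit of the replicative helicase, at 0.86 and 0.25. Pcna was at 0.19 on array 9 and -0.02 on array 8, and Mcm3, another helicase subunit, at 0.21 and 0.04. Mcm4 was the exception to the order of the arrays, at 0.27 on array 9 and 0.66 on array 8. High on both arrays were E2f8 (1.50 on array 9, 0.89 on array 8) and Rrm2, the small subunit of ribonucleotide reductase (1.38 and 1.08).

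Of the 5 measured members of mitotic entry, 3 (Ccna2, Ccnb2 and Plk1) exceeded all 18 on both arrays, and Cdk1 did so on array 9 only. Cdk1, the kinase that drives entry into mitosis, stood 1.84 above the median of the 18 on array 9 and 0.69 on array 8, Plk1, a kinase of centrosome maturation and mitotic exit, 1.30 and 0.99, Ccna2 0.97 and 0.95, and Ccnb2 0.81 and 0.72. These last 2 encode cyclins that activate Cdk1. Aurka, the kinase of spindle poles, was at 0.22 and 0.33.

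Kif20a, a kinesin of the central spindle, was 1.65 above the median of the 18 on array 8 and 1.04 on array 9. Cdc20, which activates the anaphase-promoting complex, was at 1.21 on array 8 and 0.83 on array 9, Tpx2, which nucleates spindle microtubules, at 1.04 and 0.64, and Bub1, a kinase of the spindle checkpoint, at 0.87 and 0.32. The other 2 members of the checkpoint had the reverse order, with Bub1b at 0.17 on array 8 and 0.59 on array 9 and Ttk at -0.09 and 0.14. The chromosome coat protein gene Mki67, the common marker of proliferation, was high on both (1.21 on array 8, 1.42 on array 9). Mis18a, which primes centromeres for deposition of their histone, was low on both (-0.21 and -0.19), and Nusap1, a binder of spindle microtubules, was at -0.31 on array 8 and 0.06 on array 9.

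**Figure D4:**
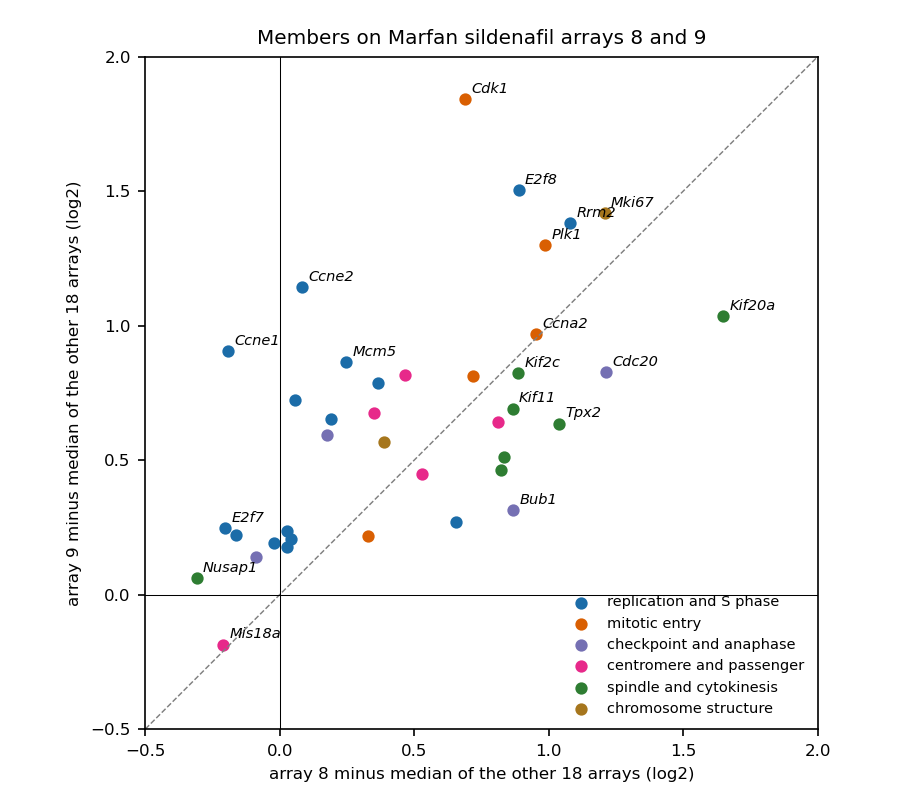
Each measured member on Marfan sildenafil array 8 (horizontal axis) and array 9 (vertical axis), given as the log2 distance from the median of all arrays but these, coloured by role; the dashed line marks equal values. Replication and S phase members lie above the line in 14 of 15 cases and spindle and cytokinesis members below it in 6 of 7.

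Markers of some other cell types stood apart on array 9 and not on array 8. On array 9, 8 of 9 measured markers of inflammatory or lipid-laden macrophages exceeded the median of the remaining 19 arrays by more than 0.5, with a mean distance of 2.88 log2 units. The mean level of that list ran from 7.18 to 7.54 over wild-type vehicle arrays, 7.22 to 7.52 over wild-type sildenafil, 7.24 to 8.04 over Marfan vehicle and 7.21 to 10.23 over Marfan sildenafil arrays. Markers of basal epithelium averaged 2.28 above on array 9, carried by Krt5, Krt14 and Trp63, while Krt15 and Ngfr stayed under the highest background probe set on all 20 arrays. Plasma cell markers averaged 1.26 above there, carried by Jchain (3.46) and Derl3 (1.46), with Mzb1 at 0.50 and Prdm1 at 0.02. Tnfrsf17 (0.88) stayed under the highest background probe set on all 20 arrays, and the highest mean of this list elsewhere was 1.06. Endothelial markers averaged -1.31 on array 9, with 6 of 6 over 0.5 below the others. NK cell markers averaged -0.86 there (4 of 5 over 0.5 below), alveolar type 1 markers -0.57 (3 of 4) and club cell markers -0.60 (2 of 3). The lowest means of these lists over the other 18 arrays were -0.39, -0.19 and -0.20, and array 8 was at 0.10, 0.02 and -0.003. On array 8 the inflammatory macrophage markers averaged -0.14 with 0 of 9 over 0.5, T cell markers -0.39, neutrophil markers -0.61, basal markers -0.05 and endothelial markers 0.05. Alveolar macrophage markers averaged 0.13 on array 8 and 0.42 on array 9. On array 9 they went both ways, with 3 of 8 over 0.5 above (Marco 2.66, Chil3 1.62, Plet1 1.36). Another 2 lay over 0.5 below (Cidec -1.57, Fabp1 -0.54). Marco was at 1.21 on array 8. The part of any of these cell types in the values of array 9 was not tested. Markers of erythroid precursors averaged -0.42 on array 8 and -0.85 on array 9, of neutrophil precursors -0.22 and -0.43, and of T cell precursors -0.13 and 0.0077. Of these markers 2 of 5, 3 of 7 and 2 of 4 stayed under the highest background probe set on all 20 arrays. Neutrophil precursor markers went both ways on array 9, with Ltf at 2.81 and 4 of 7 over 0.5 below, Ngp lowest at -2.82.

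Of the lists of cell cycle genes outside the 40, only that of other mitosis genes stood above the remaining arrays on both 8 and 9. Of 63 other mitosis genes 62 were measured, and 20 of them on array 8 and 19 on array 9 lay over 0.5 above the median of the other 19 arrays. Of all genes, 3.59% did so on array 8 and 10.8% on array 9. The mean of these mitosis genes was 0.33 above on array 8 and 0.36 on array 9, against -0.21 to 0.15 over the other 18 arrays. However, 29 of the 62 stayed under the highest background probe set on all arrays. Examples picked after their values were seen are Ect2, the exchange factor that sets the site of cytokinesis (1.37 on array 8, 1.12 on array 9), and Pbk, a mitotic kinase (1.24 and 1.00). Of 28 measured other replication genes, 1 on array 8 and 8 on array 9 passed 0.5, beside the same shares of all genes. Their means were 0.11 and 0.30, with a highest mean of 0.18 elsewhere, so that only array 9 stood above the rest. The 15 measured G1 cyclins, kinases and pocket proteins averaged 0.03 on array 8 and -0.08 on array 9, within the range of the other arrays (-0.12 to 0.13). The 14 CDK inhibitors and p53 targets averaged -0.15 and -0.05, also within that range (-0.16 to 0.13).

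The first group comparison asked how sildenafil affected Marfan lungs. With all arrays 26 of 38 members were fitted higher under sildenafil (48.4% of all genes), with a median difference of 0.14 log2 units against -0.007 over all genes. No member was called, 0 of 38 at an adjusted p under 0.05 by limma with Benjamini-Hochberg adjustment, as was no gene at all (0%). At an unadjusted p under 0.05, 9 members were higher, against 3.29% of all genes, and 0 were lower, against 3.41%. The 9 were E2f8, Ccna2, Ccnb2, Plk1, Kif11, Kif20a, Kif23, Tpx2 and Mki67, of which 8 act in mitosis. Without array 9 the count was 6, with 4 higher (Kif11, Kif20a, Kif23 and Tpx2; 3.43% of all genes) and E2f7 and Mcm6 lower (3.43%). Without array 8 it was 4, all higher (E2f8, Kif11, Kif23 and Tpx2; 3.08% of all genes). Without arrays 8 and 9 it was 4, with Kif23 higher (2.62% of all genes) and E2f7, Mcm6 and Bub1b lower (2.36%). The median difference was 0.052 without array 9 and -0.021 without arrays 8 and 9, where 17 of 38 members were fitted higher.

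Kif23, a kinesin of the midzone and of cytokinesis, was at 6.12, 5.76, 5.61, 5.57 and 5.29 on Marfan sildenafil arrays 8 to 12 and at 4.96, 4.87, 5.45, 4.86 and 5.27 on Marfan vehicle arrays 20 to 24. The groups overlapped through array 12 alone, which lay under Marfan vehicle array 22. The fitted difference was 0.59 ± 0.18 (SE) log2 units, adjusted p = 0.677 by limma, and 0.41 without arrays 8 and 9. Kif11, the motor that separates spindle poles, was at 5.36, 5.19, 4.58, 4.63 and 4.93 under sildenafil and at 4.55, 4.23, 4.32, 3.78 and 4.43 under vehicle. It was the 1 member whose Marfan groups did not overlap, a pattern shown by 0.385% of all genes. Its difference was 0.68 ± 0.23 (adjusted p = 0.706), and 0.46 without arrays 8 and 9, where its unadjusted p was no longer under 0.05.

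Tpx2 was at 6.05, 5.65, 4.97, 5.33 and 5.31 on arrays 8 to 12 and at 4.86, 5.04, 4.95, 4.67 and 5.09 on arrays 20 to 24. Here 4 of 5 sildenafil values exceeded all vehicle values, and the difference of 0.54 ± 0.18 (adjusted p = 0.706) became 0.28 without arrays 8 and 9. Mki67 was at 7.64, 7.85, 6.05, 7.08 and 6.50 under sildenafil and at 6.47, 6.32, 6.36, 6.65 and 6.03 under vehicle. Arrays 8, 9 and 11 exceeded every vehicle array while array 10 was near the lowest. The Mki67 difference was 0.66 ± 0.25 (adjusted p = 0.711), and 0.18 without arrays 8 and 9. Top2a, the topoisomerase that untangles sister chromosomes, had overlapping groups, at 5.27, 5.45, 4.71, 5.05 and 5.20 against 4.74, 5.13, 5.11, 4.91 and 4.84, a difference of 0.19 ± 0.18.

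Rrm2 was at 6.34, 6.64, 5.21, 5.43 and 5.20 on Marfan sildenafil arrays 8 to 12 and at 4.98, 5.89, 5.82, 5.13 and 5.08 on Marfan vehicle arrays 20 to 24. Arrays 8 and 9 were the highest and the rest overlapped, with a difference of 0.39 ± 0.24 (adjusted p = 0.801). Plk1 was at 6.21, 6.53, 5.23, 5.52 and 5.22 under sildenafil and at 4.99, 5.71, 5.51, 5.15 and 4.71 under vehicle, with the same pair highest and a difference of 0.53 ± 0.24 (adjusted p = 0.726). Ccne2 was at 4.49, 5.56, 4.55, 3.91 and 3.93 under sildenafil and at 3.93, 4.42, 4.66, 4.51 and 4.21 under vehicle, so that array 9 alone stood out and the difference was 0.14 ± 0.29 (adjusted p = 0.961).

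**Figure D5:**
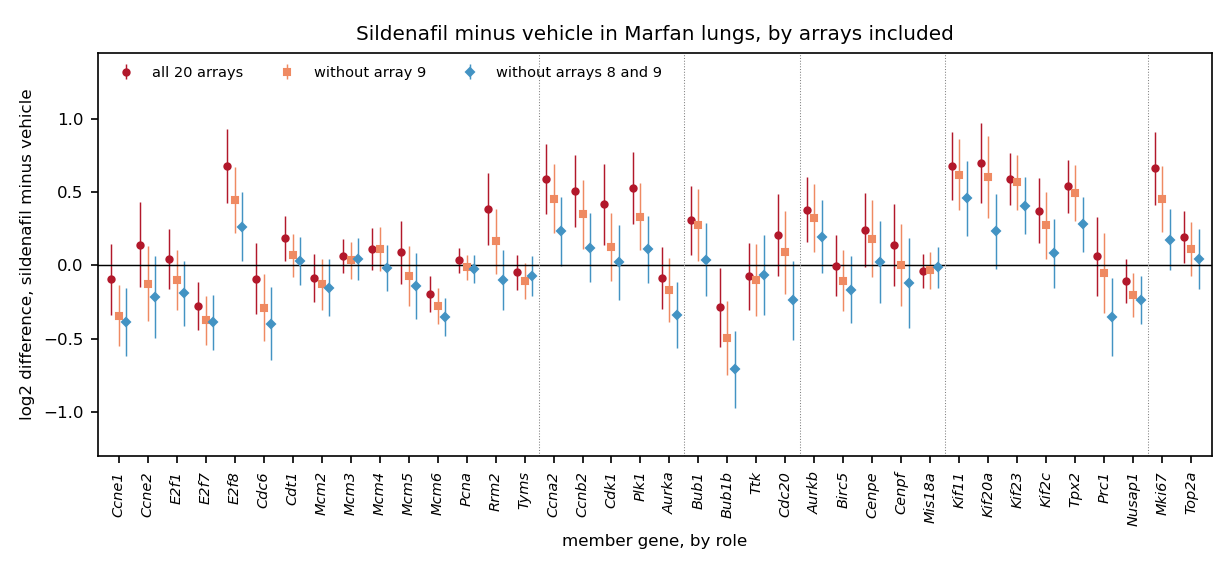
Fitted log2 difference, sildenafil minus vehicle in Marfan lungs, for each measured member (points; bars are the SE), from all 20 arrays (red), without array 9 (orange) and without arrays 8 and 9 (blue). Most members of mitotic entry and of the spindle move toward 0 as the arrays are left out, Kif11 from 0.68 to 0.46 and Kif23 from 0.59 to 0.41. Arrays 8 and 9 had the highest member means, so a fall of most members was fixed by their choice.

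By role, the median difference under sildenafil in Marfan lungs was 0.54 for the 7 spindle and cytokinesis members, 0.51 for the 5 of mitotic entry, 0.07 for the 4 of the checkpoint and anaphase, 0.14 for the 5 of the centromere and 0.04 for the 15 of replication and S phase. Without arrays 8 and 9 these medians were 0.23, 0.11, -0.15, -0.01 and -0.14. Replication and S phase members were then fitted lower in 12 of 15 cases. Of the other cell cycle genes, 43 of 62 mitosis genes were fitted higher under sildenafil in Marfan lungs with all arrays (48.4% of all genes) and 25 of 62 without arrays 8 and 9 (49.8% of all genes). None was called (0 of 119 over the 4 lists at an adjusted p under 0.05), and at an unadjusted p under 0.05 4 of 62 mitosis genes were higher (3.29% of all genes) and 1 lower (3.41%). Aspm, a protein of spindle poles, was 0.48 ± 0.16 higher, Fen1, the flap nuclease of replication, 0.66 ± 0.24, and Mdm2, the ligase that degrades p53, 0.32 ± 0.09. Pkmyt1, an inhibitory kinase of Cdk1, stood at -0.36 ± 0.15 and Tfdp2, a partner of E2F factors, at -0.29 ± 0.11.

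In wild-type lungs the same drug was compared between 4 sildenafil and 6 vehicle arrays. The member median was 0.09, with 24 of 38 fitted higher (49.6% of all genes), and no member and no gene was called (0 of 38; 0%). At an unadjusted p under 0.05 there were 3 members (9.1% of all genes), E2f8 and Mki67 higher (4.65% of all genes) and Mis18a lower (4.45%). E2f8, at 4.80, 5.25, 5.42 and 4.96 under sildenafil, exceeded the highest of 6 vehicle arrays on all 4, where the lowest was 3.57, the median 4.20 and the highest 4.75. This lack of overlap in the higher direction was shared with 1.42% of all genes. The E2f8 difference was 0.96 ± 0.26 (SE; adjusted p = 0.335 by limma). Mki67 was at 6.40, 6.95, 6.59 and 7.05 under sildenafil, and had a lowest value of 6.03, a median of 6.04 and a highest of 6.64 under vehicle. The 2 groups overlapped, and the difference was 0.53 ± 0.25 (adjusted p = 0.537). In Marfan lungs both genes had an unadjusted p under 0.05 with all arrays and neither did without array 9.

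Mis18a went the other way in wild-type lungs. It was at 6.50, 6.47, 6.64 and 6.63 under sildenafil, below all 6 vehicle arrays (lowest 6.75, median 6.86, highest 7.26). Groups separated in this direction in 1.3% of all genes. The difference was -0.39 ± 0.12 (adjusted p = 0.374), but 0.0089 with the deposited values left without further normalization. Mcm4, a helicase subunit, was at 6.71, 6.20, 6.62 and 6.50, against a lowest of 5.97, a median of 6.28 and a highest of 6.42 under vehicle, with 3 of 4 values above that highest. Its difference was 0.27 ± 0.15 (adjusted p = 0.599). Outside the members Incenp, which scaffolds the chromosomal passenger complex, was 0.79 ± 0.20 higher (adjusted p = 0.335), E2f3, an activating E2F factor, 0.49 ± 0.21 and Cdc25c, a phosphatase that activates Cdk1, 0.42 ± 0.19.

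The question for vehicle-treated lungs was whether Marfan and wild-type mice differed. As a group the members differed little, with a median difference of 0.04 and 22 of 38 fitted higher (48.8% of all genes). None was called (0 of 38, as 0% of all genes), and 4 had an unadjusted p under 0.05 (6.26% of all genes). E2f1 and Mcm4 were higher, as 3.48% of all genes, and Mis18a and Nusap1 lower, as 2.78%. Mis18a was at 6.34, 6.63, 6.59, 6.40 and 6.47 in Marfan lungs, below all 6 wild-type arrays given above, a separation found in 0.267% of all genes. Its difference of -0.46 ± 0.11 (adjusted p = 0.532 by limma) had the lowest adjusted p of the members. The same 6 wild-type vehicle arrays served the Mis18a comparison of sildenafil in wild-type lungs, so these results are not independent. Mean Mis18a was 6.95 on those arrays. It was 6.56 under wild-type sildenafil, 6.49 under Marfan vehicle and 6.45 under Marfan sildenafil. Nusap1 was at 6.18, 6.51, 6.05, 6.12 and 6.22 in Marfan lungs and from 6.23 to 6.88 in wild-type, with a wild-type median of 6.66. Only Marfan array 21 lay inside the wild-type range, and the difference was -0.39 ± 0.14 (adjusted p = 0.789).

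E2f1 was at 4.99, 5.13, 5.22, 4.32 and 4.80 in Marfan vehicle lungs, with 4 of 5 arrays above the highest wild-type value (lowest 4.01, median 4.43, highest 4.78). The E2f1 difference was 0.49 ± 0.20 (adjusted p = 0.789). For Mcm4 the Marfan values of 6.42, 6.73, 6.37, 6.89 and 6.47 met wild-type values up to 6.42, with a difference of 0.33 ± 0.14 (adjusted p = 0.789). Outside the members, the Zwilch gene of the kinetochore checkpoint stood at -0.67 ± 0.18 (adjusted p = 0.61), Cdc45, which travels with the MCM helicase, at 0.51 ± 0.18, Cenpk of the kinetochore at -0.45 ± 0.21 and Mdm2 at -0.23 ± 0.09.

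Under sildenafil, Marfan and wild-type lungs were set against each other in 5 and 4 arrays, which also enter the sildenafil comparisons above. The member median was 0.17, with 28 of 38 fitted higher (48.7% of all genes), and it was 0.056 without array 9 and -0.029 without arrays 8 and 9. No member was called (0 of 38; 0% of all genes). At an unadjusted p under 0.05 there were 6 members (3.89% of all genes). Cdk1, Kif20a, Kif23 and Kif2c were higher, 4 of 38 beside 1.87% of all genes, and Bub1b and Nusap1 lower, 2 of 38 beside 2.03%. In 0 members did the 2 groups lie apart, as they did for 0.677% of all genes in the higher and 0.749% in the lower direction. Without array 9 there were 5 (3.22% of all genes), Cdk1 and Kif2c higher (1.68%) and Ccne1, Bub1b and Nusap1 lower (1.54%). Without arrays 8 and 9 there were 3, all lower, namely Ccne1, Bub1b and Nusap1 (1.21% of all genes). Cdk1 was at 4.29, 5.45, 3.63, 4.43 and 3.58 in Marfan lungs and at 3.64, 3.47, 3.31 and 3.30 in wild-type lungs. Arrays 8, 9 and 11 exceeded all wild-type values, and the difference of 0.85 ± 0.29 (adjusted p = 1 by limma) was 0.45 without arrays 8 and 9. Kif2c, a kinesin that takes microtubules apart, was at 5.36, 5.29, 4.82, 4.46 and 4.52 against 4.49, 4.30, 3.83 and 4.27. Only array 11 fell inside the wild-type range, and the difference was 0.67 ± 0.23 (adjusted p = 1), or 0.38 without arrays 8 and 9.

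Bub1b, a component of the spindle checkpoint, was lower in Marfan lungs under sildenafil, at 4.72, 5.14, 3.96, 4.43 and 3.26 against 4.97, 4.92, 5.42 and 4.84. All Marfan arrays but array 9 lay under every wild-type array. The difference was -0.74 ± 0.29 (adjusted p = 1), and it was -1.16 without arrays 8 and 9. Nusap1 was at 6.12, 6.50, 5.84, 6.28 and 5.82 against 6.48, 6.73, 6.63 and 6.51, again with array 9 alone inside the wild-type range. Its difference was -0.47 ± 0.16 (adjusted p = 1), near the -0.39 of the vehicle comparison, which rests on separate arrays. Among other mitosis genes Cenpn of the centromere was 0.77 ± 0.26 higher, Anln, a scaffold of the cleavage furrow, 0.62 ± 0.23 and Ckap2l, a spindle protein, 0.62 ± 0.24. Gins3 of the replicative helicase stood at -0.41 ± 0.17.

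The interaction, the sildenafil difference in Marfan lungs minus that in wild-type lungs, had a member median of 0.07 with all arrays, -0.05 without array 9 and -0.12 without arrays 8 and 9. No member and no gene was called (0 of 38; 0%). At an unadjusted p under 0.05 there were Mis18a (0.35 ± 0.17) and Kif23 (0.63 ± 0.25), both in the higher direction, 2 of 38 members against 1.96% of all genes higher, 2.51% lower and 4.47% either way. Without array 9 they were Kif23 higher (2.11% of all genes) and Bub1b lower (2.23%). Without arrays 8 and 9 there were 0 higher (1.91%) and 2 lower (2%), E2f8 at -0.69 ± 0.32 and Bub1b at -1.12 ± 0.35, each with adjusted p = 1 by limma. Arrays 8 and 9 held the highest Marfan sildenafil values of both genes, so leaving them out had to lower both. Averaged over treatments, Marfan minus wild-type gave a member median of 0.11 (0.007 without arrays 8 and 9), 28 of 38 members fitted higher (48.2% of all genes) and 0 called. At an unadjusted p there were 6 (5.35% of all genes), E2f1, Mcm4, Cdk1 and Kif2c higher (2.8%) and Mis18a and Nusap1 lower (2.55%). Averaged over genotypes, sildenafil minus vehicle gave 0.13 (-0.001 without arrays 8 and 9), 29 of 38 fitted higher (49% of all genes) and 0 called. At an unadjusted p there were 8 (10.9%), E2f8, Kif11, Kif20a, Kif23, Tpx2 and Mki67 higher (5.17%) and Mcm6 and Mis18a lower (5.73%). These averages and the interaction share their arrays with the comparisons above and are no separate evidence.

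E2f8 came nearest to a call. On the Marfan arrays it was at 5.52, 6.13, 4.79, 5.08 and 4.51 under sildenafil and at 4.30, 4.75, 4.59, 4.67 and 4.34 under vehicle, so that 4 of 5 sildenafil arrays exceeded all vehicle arrays. The difference in Marfan lungs was 0.68 ± 0.25 (adjusted p = 0.711), beside 0.96 in wild-type lungs. Averaged over genotypes it was 0.82 ± 0.18, a 1.76-fold level, with adjusted p = 0.094 by limma. Without array 9 the average was 0.70 with adjusted p = 0.0441, where 74 genes were called (0.379% of all), and without arrays 8 and 9 it was 0.61 with adjusted p = 0.141. Over all alternatives the adjusted p of E2f8 ran from 0.0302 to 0.365, and the difference from 0.61 to 0.98. With only arrays 10 to 12 left in the Marfan sildenafil group, the difference in Marfan lungs was 0.26. E2f8 was dim, with a mean of 4.70, and exceeded the highest background probe set on 2 of 20 arrays.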

How the data were processed

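Whole lung RNA (700 pg per sample, integrity number above 8.5) was amplified with the GeneChip Pico kit, per the labels' protocols. The deposited log2 values were made by the authors with Affymetrix Expression Console and RMA (background correction, normalization and summary of probes), per the submitters' processing notes. Their versions are not given here. Of 24 planned arrays, 4 are titled as failing quality control; their columns hold no values and were not used. Of 29129 table entries, 22206 were transcript probe sets and 19572 had 1 gene symbol in the platform annotation. For each of 19505 genes the probe set with the highest mean over 20 arrays was kept.

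Since the deposited arrays differed in median, the 22206 probe sets were quantile-normalized. The 4 groups were fitted together (16 residual degrees of freedom) with limma 3.58.1 in R 4.3.3 (lmFit, eBayes with a variance trend), with two-sided p-values adjusted by Benjamini-Hochberg over 19505 genes and a threshold of 0.05. There were 7 comparisons. The fit was tested on simulated data. The members, the gene lists and the 16 marker lists were chosen with earlier results of these data known. Values on every array are given for the 4 members with the smallest p in each comparison of a pair of groups, Mki67, Top2a and the 6 members farthest above the others on array 9. Of the other 119 measured cell cycle genes, up to 3 per direction are named. Nothing states that the samples of a group are separate animals beyond the planned 6, so that a p-value reflects only how these samples vary, which may be technical. The labels give no batch, litter or scan date. Promoter windows are from RefSeq (GRCm38.p6). Alternatives were deposited values, median centring, array brightness as a covariate, a filter on the dimmer 50% of genes, the mean over probe sets, no variance trend, array weights and leaving out each array; leaving out arrays 8 and 9 together was added after the data were seen.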

Additional observations from a re-analysis of the deposited data

Results flagged for a closer look

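Of 180 values tested within groups (the member mean, the 6 role means and each member's level, in groups of 4 to 6 arrays), 6 had a highest or lowest array far from the rest of its group, and chance marks about 1 in 20. The member mean of wild-type sildenafil array 4 was 5.41, below 5.47 for the nearest other. Pcna on wild-type vehicle array 17 was 9.75 (nearest 10.05), and Ttk, a kinase of the spindle checkpoint, on Marfan vehicle array 23 was 2.93 (nearest 3.58). Aurkb, the kinase of the chromosomal passenger complex, was 5.70 on Marfan vehicle array 21 (nearest 5.04), and Birc5, its partner survivin, was 6.53 there (nearest 5.75). Cenpe, a kinesin of the centromere, was 3.46 on Marfan sildenafil array 12 (nearest 4.47). Arrays 8 and 9 gave 0 of these.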

How the results depend on the processing

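No paired analysis was possible because the array numbers run on over the groups and no number occurs in more than 1 group. Of the counts of calls and the member medians, 580 values under the alternatives stayed near the main value and 20 moved. With the deposited values, which shift the median of all genes by 0.25 (Marfan minus wild-type under vehicle), 0.28 (sildenafil in wild-type) and -0.24 (interaction), 5 genes were called for Marfan minus wild-type under vehicle, 2 averaged over treatments and 3 for averaged sildenafil, with 1 member, E2f8. The member medians there were 0.35, 0.43 and -0.20, and Mis18a under sildenafil in wild-type turned to 0.0089. Without the dimmer 50% of genes 10 genes were called for averaged sildenafil. That filter left 11 members, with a median difference under sildenafil of 0.034 in Marfan lungs and -0.021 in wild-type lungs. For Marfan minus wild-type their median was 0.071 under sildenafil and 0.022 under vehicle. Only 1 of the 11 had an unadjusted p under 0.05 by limma for sildenafil in Marfan lungs. Array weights gave 1 gene for Marfan minus wild-type under vehicle, 5 averaged over treatments and 68 for averaged sildenafil, again with 1 member, E2f8. Leaving out each array gave 0 to 2 genes for Marfan minus wild-type under vehicle, 0 to 2 averaged over treatments, and 0 to 74 genes and 0 to 1 members for averaged sildenafil. The 74 came without array 9, and 25 without array 10. Without arrays 8 and 9 the member median of Marfan minus wild-type under sildenafil was -0.029. The cause of these shifts was not tested. Probes of most members lie near the background, which limits what their levels can show.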

Other observations

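Marfan vehicle array 21 had the highest member mean outside arrays 8 and 9 (5.64), with 30 of 38 members above the median of the other 19 arrays. Of these, 8 were above by over 0.5 log2 units (21.1% of members, 5.39% of all genes). Array 21 held the highest value of all 20 arrays for 4 members (10.5%; 4.64% of all genes). The count was 15 on array 9 (39.5%; 12.4% of all genes) and 10 on array 8 (26.3%; 4.18%). It was at most 1 on any other array, among them wild-type vehicle array 18 with 11% of all genes. The inhibitor Cdkn1a, which encodes p21, was at 10.52 on array 9 and at 9.75 on array 8, beside 9.18 to 9.97 on the other 18. This gene was picked after its values were seen.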
